A study of Mus musculus with 6 samples.

Results

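Trh, Spink3 and A2m encode a peptide hormone precursor and 2 protease inhibitors that cells secrete, and they are described here in Alkbh1 knockout (KO) and wild-type (WT) mouse embryonic stem (ES) cells. They are 3 of the 23951 genes in the authors' deposited table, of which 14095 were tested. They were chosen by the measured values themselves, the pooled KO and WT levels of the same comparison, which stand far apart at moderate to high expression, so their own differences are a description and carry no test here. The cells were TT2 ES cells of mixed C57BL6 and CBA background, kept without feeder cells, at passage 5. The KO group held 4 libraries from 2 clones, with 2 libraries per clone, and the WT group held 2 libraries; which of them entered each pooled value is not stated in the sources used here. Alkbh1 belongs to the AlkB dioxygenase genes, and the labels say neither which piece of it was removed nor whether libraries came from separate cultures. Levels are FPKM (fragments per kilobase of transcript, corrected for library size), deposited as 1 pooled value per genotype. No library has a value of its own, so no SD can be given, the 2 clones cannot be compared, and the depth is unknown. Genotype and clone cannot be told apart.

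Thyrotropin-releasing hormone (TRH) is a very short peptide that the hypothalamus uses to drive the pituitary and, through it, the thyroid. It is cut out of a longer precursor by prohormone convertases, trimmed by carboxypeptidases, amidated by Pam at its end and cyclised by Qpct at its start. Spink3, which RefSeq lists as Spink1 and which is the mouse counterpart of human SPINK1, is a small inhibitor with a Kazal fold that blocks trypsin and is best known from the exocrine pancreas. A2m encodes alpha-2-macroglobulin, in humans a large plasma protein that lets a protease cut its bait region, closes around it through a reactive thioester, and is then taken up by the receptor Lrp1.

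The coding sequence of Trh shows how the hormone is stored, as repeated units that each spell glutamine, histidine, proline and glycine between pairs of basic residues. The GENCODE M21 transcript of Trh holds 5 such units in frame within 768 coding bases, and no other of 21877 mouse protein-coding genes held any, with the longest coding transcript searched for each. The units are printed below, 5′ to 3′ on the coding strand (Trh lies on chromosome 6), with the 12 bases of the hormone unit in capitals and the basic codons on either side in lower case.
Trh unit 1: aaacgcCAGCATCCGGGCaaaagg
Trh unit 2: aaacgaCAGCACCCTGGCcgacgt
Trh unit 3: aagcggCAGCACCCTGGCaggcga
Trh unit 4: aagaggCAGCATCCAGGCcggagg
Trh unit 5: aaacgtCAGCATCCTGGCaaaagg
They use 4 different spellings of the same 4 amino acids, since units 2 and 3 have the same capitals. The units start at bases 223, 319, 454, 508 and 601 of the coding sequence, counted from the A of the start codon.

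The reactive thioester is a hallmark of the A2m family. The codons of the thioester site (glycine, cysteine, glycine, glutamate, glutamine) were located in the coding sequences of A2m and of its relatives that were tested. These codons occurred in 12 of 21877 coding genes, 5 of them not among the family genes searched by name (Gm7298, Htr7, Lgr4, Oas3 and Rcc1). Whether any of these 5 is a relative of A2m was not tested. The family members C4b and Hc had no match. Whether they lack the site or the search missed it was not tested. Each line gives 45 bases from the GENCODE M21 transcript, 5′ to 3′ on the coding strand, with the 15 bases of the thioester codons in capitals. A2m and Pzp lie on chromosome 6, Cd109 on chromosome 9 and C3 on chromosome 17.
A2m: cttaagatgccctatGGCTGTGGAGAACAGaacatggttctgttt
Pzp: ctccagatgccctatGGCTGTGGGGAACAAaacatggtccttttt
Cd109: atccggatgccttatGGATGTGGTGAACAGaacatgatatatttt
C3: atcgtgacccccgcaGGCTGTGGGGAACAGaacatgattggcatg
Pzp shared 39 of these 45 bases with A2m, Cd109 shared 33 and C3 shared 29. Of the 4556 stretches of 50 bases in the A2m transcript, 0 occurred exactly in a transcript of another gene, as did 0 of 1335 stretches of Trh and 0 of 680 of Spink3, against 207 of 4632 of Pzp, all shared with Gm10069. How the authors' reads were shared out between like genes was not tested.

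The members differed in opposite directions, with Trh and Spink3 lower and A2m higher in KO cells. Trh (chromosome 6, 92192055 to 92194644, mm9) had 27.6 FPKM in KO cells and 285.7 FPKM in WT cells, which left 9.67% of the WT level. Spink3, on chromosome 18, had 2.22 FPKM in KO cells and 19.1 FPKM in WT cells, or 11.7% of the WT level. A2m (chromosome 6, 121586191 to 121629256, mm9) had 18.6 FPKM in KO cells and 4.37 FPKM in WT cells, a 4.25-fold higher level. In bulk RNA, fewer cells with a transcript and less transcript per cell cannot be told apart.

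The authors' deposited table gives log2 fold changes of KO over WT of -3.37 for Trh, -3.10 for Spink3 and 2.09 for A2m. All 3 carry the smallest q in the authors' deposited table, 0.000206, which 3418 genes share. At q under 0.05 that table calls 50.8% of tested genes, 22.4% higher and 28.4% lower in KO, and nothing is read from the members' calls, since their differences chose them. The members also exceed 2-fold, as do 9.04% of tested genes that were called higher and 5.36% that were called lower, and nothing is read from that either. By the size of the deposited test statistic, Trh stood at place 3 of 14095, A2m at place 17 and Spink3 at place 83. By log2 fold change, Trh stood at place 22 and Spink3 at place 26 from the lowest, and A2m at place 194 from the highest.

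The order of the members by level was not the same in both genotypes. In KO cells it ran Trh, A2m, Spink3, and in WT cells Trh, Spink3, A2m. Trh exceeded A2m 1.49-fold in KO cells and 65.3-fold in WT cells, while Trh exceeded Spink3 12.4-fold in KO cells and 14.98-fold in WT cells. These ratios within a genotype do not depend on how KO and WT were scaled to each other. The ratio of Trh to Spink3 differed far less between genotypes than the ratio of Trh to A2m. That contrast restates the members' own fold changes, for which they were chosen, so nothing is read from it. With 1 pooled value per genotype, no error can be set on any of these ratios.

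**Figure D1:**
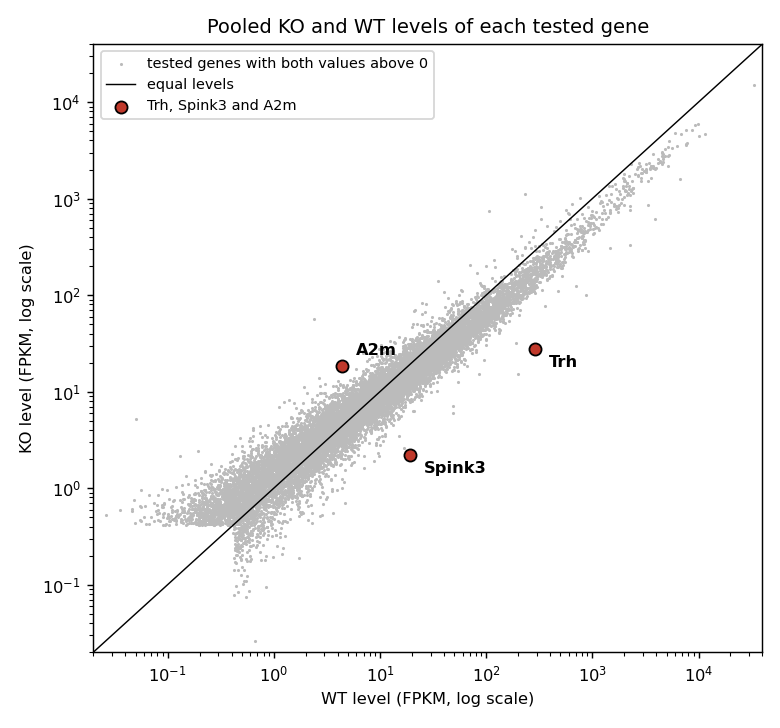
Each grey point is a tested gene with both values above 0, with its pooled WT level on the horizontal and its pooled KO level on the vertical axis (FPKM, log scales), and the line marks equal levels. Trh (27.6 FPKM in KO, 285.7 FPKM in WT) and Spink3 (2.22 FPKM in KO, 19.1 FPKM in WT) lie below the line, and A2m (18.6 FPKM in KO, 4.37 FPKM in WT) lies above it.

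Set among all tested genes, Trh and Spink3 ranked lower and A2m higher in KO than in WT cells. By FPKM Trh held place 3003 of 14095 in KO cells (the top 21.3%) and place 496 in WT cells (the top 3.52%). Spink3 held place 10504 in KO cells (the top 74.5%) and place 4425 in WT cells (the top 31.4%). A2m held place 4091 in KO cells (the top 29.0%) and place 8418 in WT cells (the top 59.7%).

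Fold changes in the authors' deposited table drift with level and with transcript length, so each member is described beside genes like it. The members were chosen for large differences, so nothing is read from how few genes lie beyond them. Trh belongs to decile 10 by mean level, the highest, where the median log2 fold change in the authors' deposited table was -0.72, and 4 of its 1410 genes lay below Trh. Its transcript of 1384 bases falls in length decile 2, counted from the shortest, where the median was -0.30 and 0 of 1402 genes lay below it. Spink3 and A2m share decile 6 by level (median -0.03), in which 4 of 1409 genes lay below Spink3 and 7 lay above A2m. Spink3 has a short transcript (729 bases), and in length decile 1 (median -0.46) 21 of 1400 genes lay below it. In the length decile of A2m (decile 8, with a transcript of 4605 bases and a median of 0.07), 19 of 1397 lay above it.

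**Figure D2:**
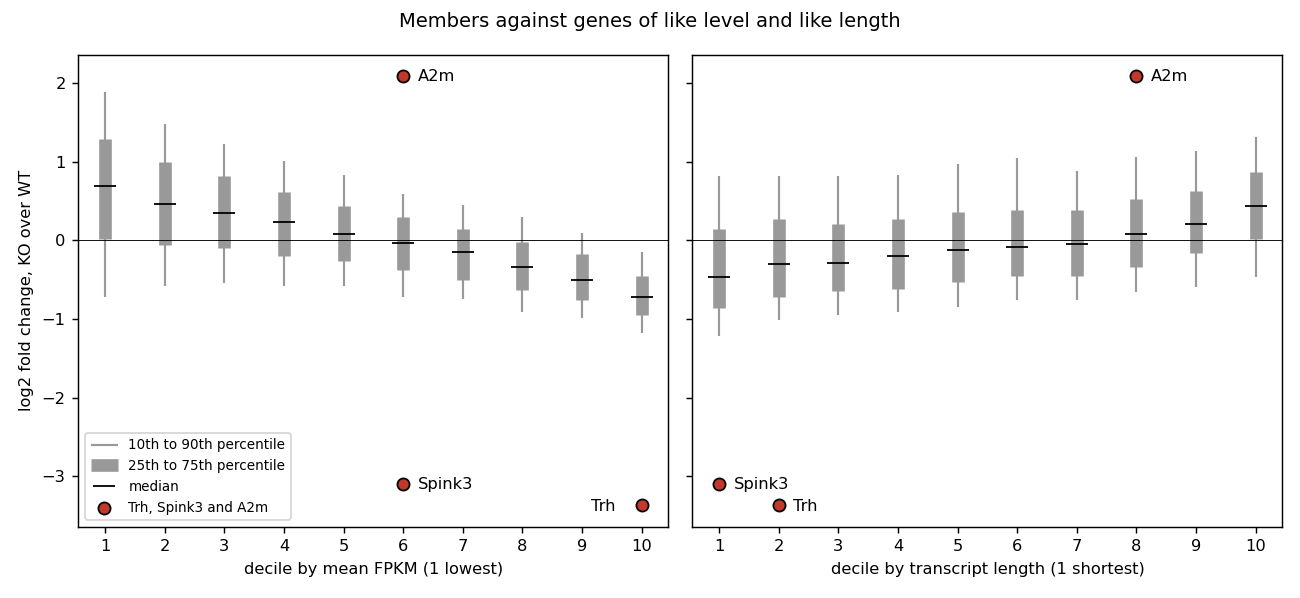
Log2 fold change of KO over WT (vertical axis) by decile of mean FPKM (left) and of transcript length (right), with thin lines from the 10th to the 90th and thick lines from the 25th to the 75th percentile of tested genes and a dash at the median. Trh (-3.37), Spink3 (-3.10) and A2m (2.09) lie outside the thin lines of their deciles in both panels. They were chosen for large differences, so nothing is read from this.

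The genes next to the members in the order of fold changes were mostly not called, many of them genes of small RNAs. This order was taken over tested genes whose mean of both genotypes reached the median of 7.57 FPKM. Just beyond Trh stood Gm5643, with 15.1 FPKM in KO and 199 FPKM in WT cells (q = 0.22 in the authors' deposited table). Between Trh and Spink3 came only Snora61, a small nucleolar RNA gene, with 99.7 FPKM in KO and 877 FPKM in WT cells (q = 0.443 in the authors' deposited table). Just after Spink3 followed Lefty1, a secreted Nodal antagonist, at 5.94 FPKM in KO and 49.2 FPKM in WT cells. Beyond A2m on the other side stood Scarna17, Ndufa4l2, Snord2 and Atp6v0c, none of them called (q from 0.25 to 0.424 in the authors' deposited table). Just short of A2m came Mir1905 (q = 0.569 in the authors' deposited table) and then Ndrg1, a hypoxia-responsive gene, at 25.02 FPKM in KO and 6.93 FPKM in WT cells.

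Trh was the most abundant of 63 genes for peptide hormone and granin precursors in both genotypes, with a much smaller lead in KO cells. It made up 25.8% of the summed FPKM of these genes in KO cells and 64.2% in WT cells. The next gene in both was Apela, the precursor of a secreted apelin receptor ligand made by ES cells, which had 21.5 FPKM in KO and 96.3 FPKM in WT cells. Trh exceeded Apela 1.28-fold in KO cells and 2.97-fold in WT cells.

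Of the 62 other precursor genes 22 were tested, and the authors' deposited table called 6 higher and 3 lower (40.9% called, beside 50.8% over all tested genes). The median log2 fold change of the tested ones was 0.06, beside -0.06 over all tested genes. Apela fell (4.47-fold), as did Calca, the calcitonin gene, with 20.5 FPKM in KO and 32.0 FPKM in WT cells, and Pnoc, the nociceptin precursor gene, with 0.259 FPKM in KO and 0.487 FPKM in WT cells. Among those that rose, Kiss1, the kisspeptin gene, had 3.87 FPKM in KO and 1.82 FPKM in WT cells, and Adm, which encodes the vasodilator adrenomedullin, had 2.30 FPKM in KO and 0.879 FPKM in WT cells. The chromogranin gene Chga stood at 7.44 FPKM in KO and 7.39 FPKM in WT cells (q = 0.972 in the authors' deposited table). The 40 precursor genes that were not tested reached at most 0.383 FPKM. If the summed FPKM of both genotypes were set equal, every log2 fold change would be 0.65 higher and the calls in this list would split into 7 above and 2 below 0, with Calca crossing to above 0.

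**Figure D3:**
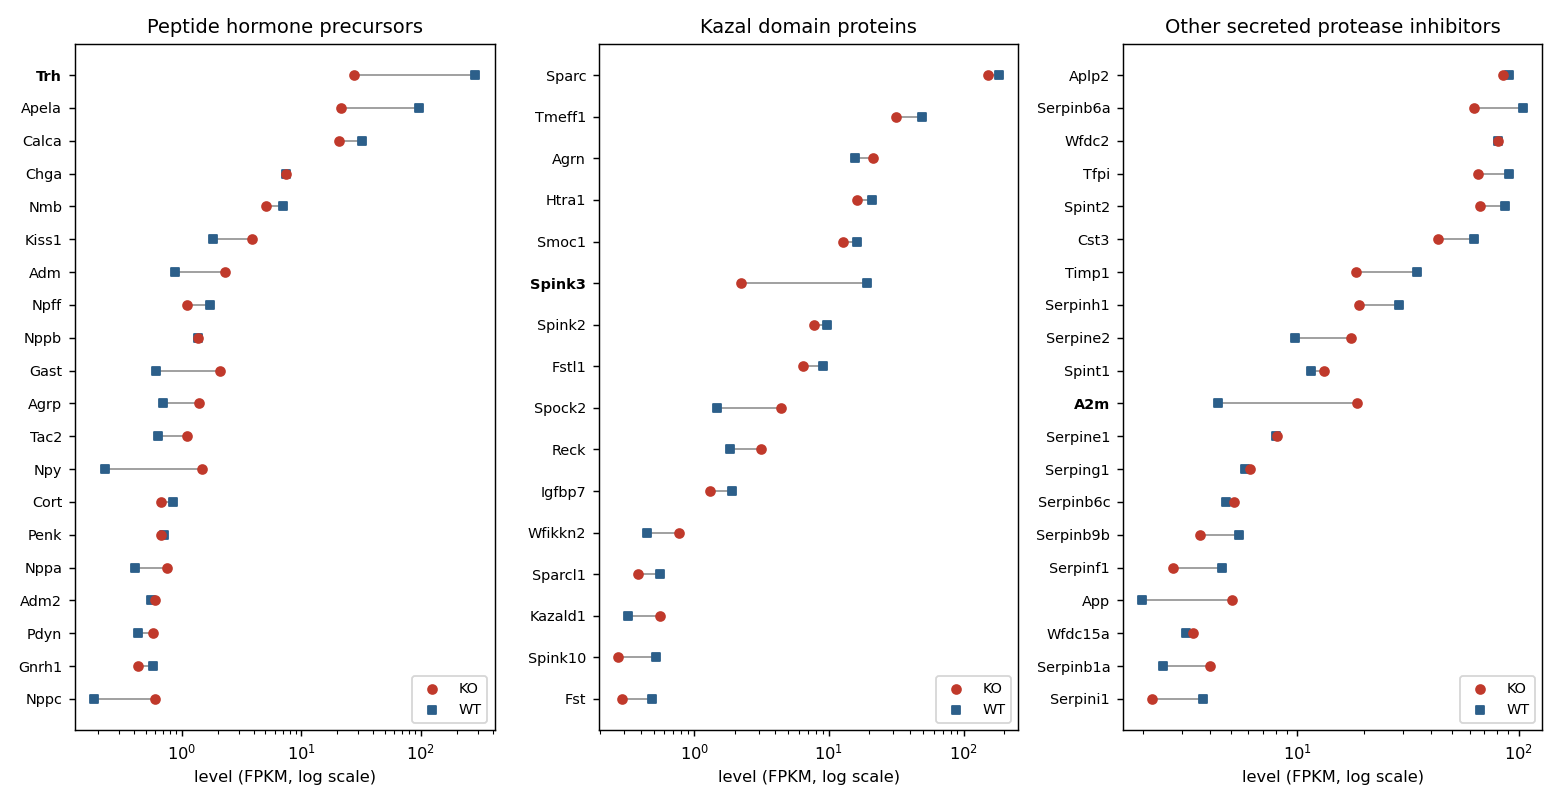
Pooled levels (FPKM, log scale) in KO (circles) and WT (squares) of tested genes, ordered by mean level (the 20 most abundant where there are more). The panels hold peptide hormone precursors, Kazal domain proteins, and the serpin, A2m family and other inhibitor lists, not all of which encode secreted inhibitors. Trh heads the left panel in both genotypes, Spink3 shows the widest gap of the middle panel (2.22 FPKM in KO, 19.1 FPKM in WT), and A2m has its KO value (18.6 FPKM) to the right of its WT value (4.37 FPKM).

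Of 14 genes for maturation, receptors and breakdown of TRH 10 were tested, and the authors' deposited table called 5 higher and 0 lower (median log2 fold change 0.50). This is 5 of 10 called, near the 50.8% of all tested genes, and the count called higher was 3 at q under 0.01 and 2 at 2-fold or more. All those tested but Prep fall in level deciles 2 to 5, where the medians of tested genes ran from 0.46 down to 0.08. Cpd, a carboxypeptidase gene, rose to 7.05 FPKM in KO cells, against 3.13 FPKM in WT cells. Furin, a convertase gene, rose to 2.09 FPKM in KO cells, against 0.842 FPKM in WT cells. Pam, the amidating enzyme gene, had 2.40 FPKM in KO and 1.66 FPKM in WT cells, and Qpct, the cyclising enzyme gene, had 4.15 FPKM in KO and 2.88 FPKM in WT cells. Pgpep1, which encodes a peptidase that removes the cyclised end residue, had 6.62 FPKM in KO and 4.62 FPKM in WT cells. The carboxypeptidase gene Cpe, at 2.67 FPKM in KO and 2.91 FPKM in WT cells, and the convertase gene Pcsk1, at 1.25 FPKM in KO and 0.890 FPKM in WT cells, were not called (q = 0.654 and 0.0765 in the authors' deposited table). The convertase gene Pcsk2 was at 0.0202 FPKM in KO and 0.0171 FPKM in WT cells and was not tested. The receptor genes were near 0 as well, with Trhr at 0.0145 FPKM in KO and 0.00645 FPKM in WT cells and Trhr2 at 0.0251 FPKM in KO and 0.0467 FPKM in WT cells. Trhde, for the enzyme that breaks TRH down outside cells, was listed at 0 in both.

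Upstream of its start, Trh has a CpG-rich promoter with a motif known from studies of its control by thyroid hormone. The 250 bases before the start are shown because regulators that act through this motif were measured here (RefSeq, GRCm38.p6, chr6:92244651-92244900, minus strand, 5′ to 3′). Capitals mark the motif TGACCTCA, known as Site 4 of the Trh promoter, where thyroid hormone receptors and CREB family factors have been described to act, and the TATA core TATAA nearer the start.
Trh promoter: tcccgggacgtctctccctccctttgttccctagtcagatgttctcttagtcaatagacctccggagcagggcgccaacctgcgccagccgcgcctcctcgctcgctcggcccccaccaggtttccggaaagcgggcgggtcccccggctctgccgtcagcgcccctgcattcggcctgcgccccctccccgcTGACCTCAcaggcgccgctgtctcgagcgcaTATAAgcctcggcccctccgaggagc
TGACCTCA begins 57 bases and TATAA 26 bases before the start. Searched on both strands, TGACCTCA occurred in 1.94% of the 32851 RefSeq promoter windows of this length and TATAA in 22.8%. The nuclear receptor core AGGTCA was found on the other strand, overlapping TGACCTCA, and occurred in 14.0% of windows. The STAT motif TTCNNNGAA (7.02% of windows) and the cAMP response motif TGACGTCA (1.55%) had no match in these 250 bases. The window holds 25 CpG pairs, against a median of 6, and 89.3% of windows held fewer. A match describes letters in the sequence and does not show binding.

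Genes for factors known to control Trh in the hypothalamus, and for thyroid hormone handling, moved in both directions. Of 22 listed 15 were tested, with 7 called higher and 2 lower in the authors' deposited table and a median log2 fold change of 0.39 (60% called, beside 50.8% over all tested genes). The 2 that fell encode factors of the CREB family. Atf1 had 32.0 FPKM in KO and 60.4 FPKM in WT cells, and Creb1 had 5.42 FPKM in KO and 8.12 FPKM in WT cells. With equal totals, Creb1 would lie above 0 and the calls would split into 8 above and 1 below. The corepressor gene Ncor1 rose to 29.7 FPKM in KO cells, against 22.1 FPKM in WT cells, and the coactivator gene Ncoa1 to 5.79 FPKM in KO cells, against 3.77 FPKM in WT cells. Thra, the gene of thyroid hormone receptor alpha, chosen here after its values were seen, rose to 4.30 FPKM in KO cells, against 1.77 FPKM in WT cells. The beta receptor gene Thrb was not tested, at 0.0914 FPKM in KO and 0.0263 FPKM in WT cells. Of the neural factors that mark TRH neurons, Sim1 was at 0.0190 FPKM in KO and 0.0139 FPKM in WT cells, and Otp was listed at 0 in both.

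Among Kazal domain proteins, Spink3 stood lower in rank in KO cells. It held place 10 of 32 in KO cells, between Reck (3.14 FPKM) and Igfbp7 (1.31 FPKM). In WT cells it held place 4, between Htra1 (20.9 FPKM) and Smoc1 (16.3 FPKM). Leaving Spink3 out, 15 of 31 genes were tested, and the authors' deposited table called 4 higher and 3 lower (median log2 fold change -0.36), or 46.7% called, near the 50.8% over all tested genes.

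Among the other inhibitors of the Spink family, 2 were tested and neither was called. Spink2 had 7.68 FPKM in KO and 9.71 FPKM in WT cells (q = 0.212 in the authors' deposited table), and Spink10 had 0.271 FPKM in KO and 0.518 FPKM in WT cells (q = 0.108 there). The Kazal genes that were not tested reached at most 0.391 FPKM. Of the matrix and membrane proteins with Kazal domains, Sparc, an abundant collagen-binding protein gene, had 152 FPKM in KO and 185 FPKM in WT cells and was not called (q = 0.113 in the authors' deposited table). Tmeff1 fell to 31.6 FPKM in KO cells, against 48.8 FPKM in WT cells, Htra1 to 16.1 FPKM in KO, against 20.9 FPKM in WT cells, and Fstl1 to 6.38 FPKM in KO, against 9.02 FPKM in WT cells. With equal totals these 3 falls would turn into values above 0, so that all 7 calls of the list would lie above 0. The list median would then be 0.29, beside 0.59 over all tested genes. Spock2, a testican gene, rose to 4.37 FPKM in KO cells, against 1.48 FPKM in WT cells. Reck, a membrane-anchored metalloprotease inhibitor gene, rose to 3.14 FPKM in KO cells, against 1.83 FPKM in WT cells. Agrn (21.4 FPKM in KO, 15.7 FPKM in WT) and Wfikkn2 (0.763 FPKM in KO, 0.448 FPKM in WT) rose as well. Smoc1, Igfbp7, Sparcl1, Kazald1 and Fst were tested and not called.

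Trypsin, the enzyme that Spink3 blocks, was hardly transcribed in either genotype. The trypsin genes Prss1, Prss3, Try5 and Try10 were listed at 0 in both, and Prss2 at 0.0132 FPKM and Try4 at 0.0155 FPKM in KO cells were listed at 0 in WT cells. Of 20 tested genes for serine proteases related to trypsin, the authors' deposited table called 5 higher and 3 lower (median log2 fold change 0.11; 40% called, beside 50.8% over all). St14, which encodes the epithelial membrane protease matriptase, rose to 9.45 FPKM in KO cells, against 5.13 FPKM in WT cells. Prss35, Hpn, Plat and Plau also rose, the last 2 encoding the plasminogen activators (Plat 1.15 FPKM in KO and 0.776 FPKM in WT, Plau 0.883 FPKM in KO and 0.419 FPKM in WT). The chymotrypsin-like gene Ctrl fell to 0.809 FPKM in KO cells, against 2.75 FPKM in WT cells, and Prss46 to 0.181 FPKM in KO cells, against 0.830 FPKM in WT cells. Klk8, a kallikrein gene, fell to 14.96 FPKM in KO, against 20.5 FPKM in WT cells, and would lie above 0 with equal totals.

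A2m was the most abundant listed gene of its family in both genotypes. Of its 3 tested relatives 2 were called higher and 0 lower in the authors' deposited table (66.7%, beside 50.8% called over all tested genes; median log2 fold change 1.49). With a mean of at least 1 FPKM the count fell to 1 and the median to 0.50. Cd109, which encodes a membrane-anchored relative, rose to 1.85 FPKM in KO cells, against 0.662 FPKM in WT cells. The complement gene C3 rose to 0.426 FPKM in KO cells, against 0.0619 FPKM in WT cells, and belongs to level decile 1, where the median log2 fold change was 0.69. Pzp, the closest relative of A2m among those printed above, had 1.75 FPKM in KO and 2.44 FPKM in WT cells and was not called (q = 0.128 in the authors' deposited table). C4b had 0.211 FPKM in KO and 0.0635 FPKM in WT cells and was not tested, nor was the complement gene Hc, at 0.156 FPKM in KO and 0.107 FPKM in WT cells. The murinoglobulin genes beside A2m on chromosome 6 were at or near 0, with Mug1 at 0.00254 FPKM in KO cells and listed at 0 in WT cells, and Mug2 listed at 0 in both.

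Lrp1, the receptor that takes up A2m once it has caught a protease, rose 5.93-fold. It had 4.35 FPKM in KO and 0.734 FPKM in WT cells, with a log2 fold change of 2.57 in the authors' deposited table. Its transcript falls in length decile 10, the longest, where the median log2 fold change was 0.44. Of 11 tested genes for receptors of this family and their helpers 2 were called higher and 5 lower in the authors' deposited table (median -0.41; 63.6% called, beside 50.8% over all). The other that rose was Gulp1, an adaptor gene, with 1.56 FPKM in KO and 1.01 FPKM in WT cells. Lrpap1, the chaperone of these receptors, fell to 19.8 FPKM in KO cells, against 30.3 FPKM in WT cells. Hspa5 (214 FPKM in KO, 295 FPKM in WT) and Mesdc2 (18.1 FPKM in KO, 25.6 FPKM in WT), both chaperone genes of the endoplasmic reticulum, fell likewise. With equal totals these 3 chaperone genes would lie above 0. The receptor gene Lrp2 (1.58 FPKM in KO, 2.64 FPKM in WT) and the adaptor gene Dab2 (0.956 FPKM in KO, 1.73 FPKM in WT) fell and would stay below 0 with equal totals.

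Set among the 80 genes of the serpin, A2m family and other inhibitor lists, A2m stood at place 8 in KO cells and place 16 in WT cells. It made up 3.38% of their summed FPKM in KO cells and 0.663% in WT cells. Not all of these genes encode secreted inhibitors, since Serpinh1 encodes a collagen chaperone and Cd109 a membrane-anchored protein. The places and shares of A2m therefore hold for these lists only. Its neighbours in KO cells were Serpinh1 (18.9 FPKM) and Timp1 (18.4 FPKM), and in WT cells Serpinf1 (4.58 FPKM) and Serpini1 (3.72 FPKM).

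Serpins, which trap proteases by another mechanism, moved both ways. Of 13 tested, the authors' deposited table called 4 higher and 5 lower (69.2%, beside 50.8% over all tested genes), with a median log2 fold change of 0.08. With a mean of at least 1 FPKM 2 were called higher and 5 lower, and the median turned to -0.28. Serpine2, for an inhibitor of thrombin and plasminogen activators, rose to 17.4 FPKM in KO cells, against 9.72 FPKM in WT cells. Serpinb1a, Serpinb9 and Serpinb5 rose too, each at 4.03 FPKM or less in KO cells. Serpinb6a fell to 63.1 FPKM in KO cells, against 105 FPKM in WT cells, and Serpinh1, the collagen chaperone gene, fell to 18.9 FPKM in KO, against 28.8 FPKM in WT cells, but would lie above 0 with equal totals. Serpinf1, Serpini1 and Serpinb9b fell likewise, and with equal totals the calls would split into 6 above and 3 below 0.

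Of 14 tested genes for other inhibitors, 4 were called higher (App, Timp2, Itih5 and Col7a1) and 4 lower (Tfpi, Spint2, Cst3 and Timp1) in the authors' deposited table (median log2 fold change 0.15; 57.1% called, beside 50.8% over all). With a mean of at least 1 FPKM the median was -0.0072. App, the amyloid precursor gene, some forms of which carry a Kunitz inhibitor domain, rose to 5.06 FPKM in KO cells, against 1.98 FPKM in WT cells. Timp1, a metalloprotease inhibitor gene, fell to 18.4 FPKM in KO, against 34.7 FPKM in WT cells, while its relative Timp2 rose to 3.80 FPKM in KO, against 2.05 FPKM in WT cells. With equal totals 7 of the 8 calls would lie above 0, and Timp1 alone below. Itih5, for a hyaluronan-binding protein that stabilises the matrix, rose to 0.896 FPKM in KO cells, against 0.212 FPKM in WT cells.

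Metalloproteases of the matrix include further A2m substrates, and those of the cell surface were listed with them. Of 26 tested, the authors' deposited table called 15 higher and 2 lower (65.4% called, beside 50.8% over all tested genes). Over all tested genes, 22.4% were called higher and 28.4% lower. The split in the list was the same under equal totals. It was 8 higher and 2 lower with a mean of at least 1 FPKM, and 5 higher and 0 lower at 2-fold or more. In log2 fold change, the list median was 0.50, and 0.45 with a mean of at least 1 FPKM. Most of the tested list genes fall in level deciles 1 to 4, where the medians of all tested genes ran from 0.69 down to 0.23. The others fall in level deciles 5 to 7, where these medians ran from 0.08 down to -0.15. How far the split follows this drift with level was not tested. The 4 most abundant that rose were Adam19 (19.2 FPKM in KO, 13.9 FPKM in WT), Adam9 (14.2 FPKM in KO, 8.85 FPKM in WT), Adam10 (9.39 FPKM in KO, 6.88 FPKM in WT) and Mmp2 (7.18 FPKM in KO, 3.91 FPKM in WT). Those that fell were Adamts13, which encodes the protease of von Willebrand factor (2.34 FPKM in KO, 4.33 FPKM in WT), and Mmp14, for a membrane-bound collagenase (1.88 FPKM in KO, 3.22 FPKM in WT).

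The LIF and STAT3 pathway keeps mouse ES cells undifferentiated, and in the rat liver its relative, the IL-6 response, is known to raise A2m strongly. Of 25 tested genes of the pathway 7 were called higher and 3 lower in the authors' deposited table (median log2 fold change 0.11; 40% called, beside 50.8% over all). Stat3 had 22.2 FPKM in KO and 20.5 FPKM in WT cells, and its feedback target Socs3 had 48.2 FPKM in KO and 50.8 FPKM in WT cells, neither called (q = 0.575 and 0.711 in the authors' deposited table). Socs2 fell to 18.7 FPKM in KO, against 41.5 FPKM in WT cells, as did Pim3 (17.8 FPKM in KO, 29.6 FPKM in WT) and Cebpb (0.931 FPKM in KO, 1.76 FPKM in WT). The phosphatase gene Ptpn6 rose to 32.2 FPKM in KO, against 13.8 FPKM in WT cells, and the kinase gene Jak1 to 12.9 FPKM in KO, against 9.003 FPKM in WT cells. The IL-6 receptor genes Il6st (11.5 FPKM in KO, 8.50 FPKM in WT) and Il6ra (1.23 FPKM in KO, 0.442 FPKM in WT) were called higher too. Jak2, Stat5b and Lif were also called higher. The split of calls was the same with equal totals.

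**Figure D4:**
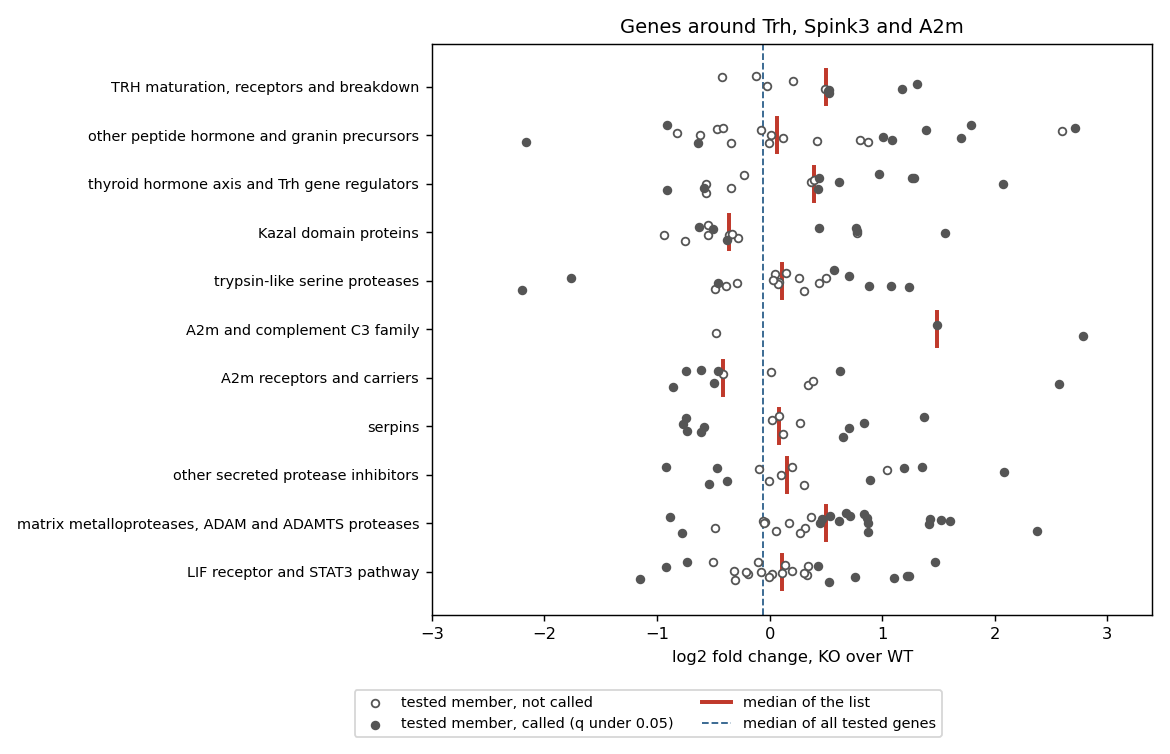
Log2 fold change of KO over WT (horizontal axis) of each tested gene in 11 lists around the members, which are themselves left out, with filled points for calls at q under 0.05, a red bar at each list's median and a dashed line at the median of all tested genes (-0.06). The medians furthest right of the dashed line are those of the A2m family (1.49), TRH maturation (0.50), metalloprotease (0.50) and thyroid hormone axis (0.39) lists. Those of Kazal proteins (-0.36) and A2m receptors (-0.41) lie left of it.

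Of the genes beside Trh on the chromosome only Mrps25 was called lower, and beside A2m only Slc6a13 was called at all, among the 8 nearest listed genes of each. Zfyve20, the nearest gene to Trh, 27.3 kb away, had 9.43 FPKM in KO and 9.92 FPKM in WT cells and was not called (q = 0.732 in the authors' deposited table). Of the 4 nearest listed genes on either side of Trh, 4 rose (Fgd5, Nr2c2, Prickle2 and Adamts9), 1 fell (Mrps25), 2 were not called and 1 was not tested, beside 22.4% called higher and 28.4% lower over all tested genes. Prickle2, on the other side of Trh, rose to 0.804 FPKM in KO cells, against 0.254 FPKM in WT cells. Mrps25, a mitochondrial ribosomal protein gene, fell to 12.3 FPKM in KO cells, against 19.7 FPKM in WT cells, and would lie at about 0 with equal totals. Values of Mrps25 and Nr2c2 are uncertain, since the table joins their overlapping regions. Around A2m, 7 of the 8 nearest genes were not tested, each at 0.366 FPKM or less, and Slc6a13, a GABA transporter gene, rose to 1.70 FPKM in KO cells, against 1.10 FPKM in WT cells.

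**Figure D5:**
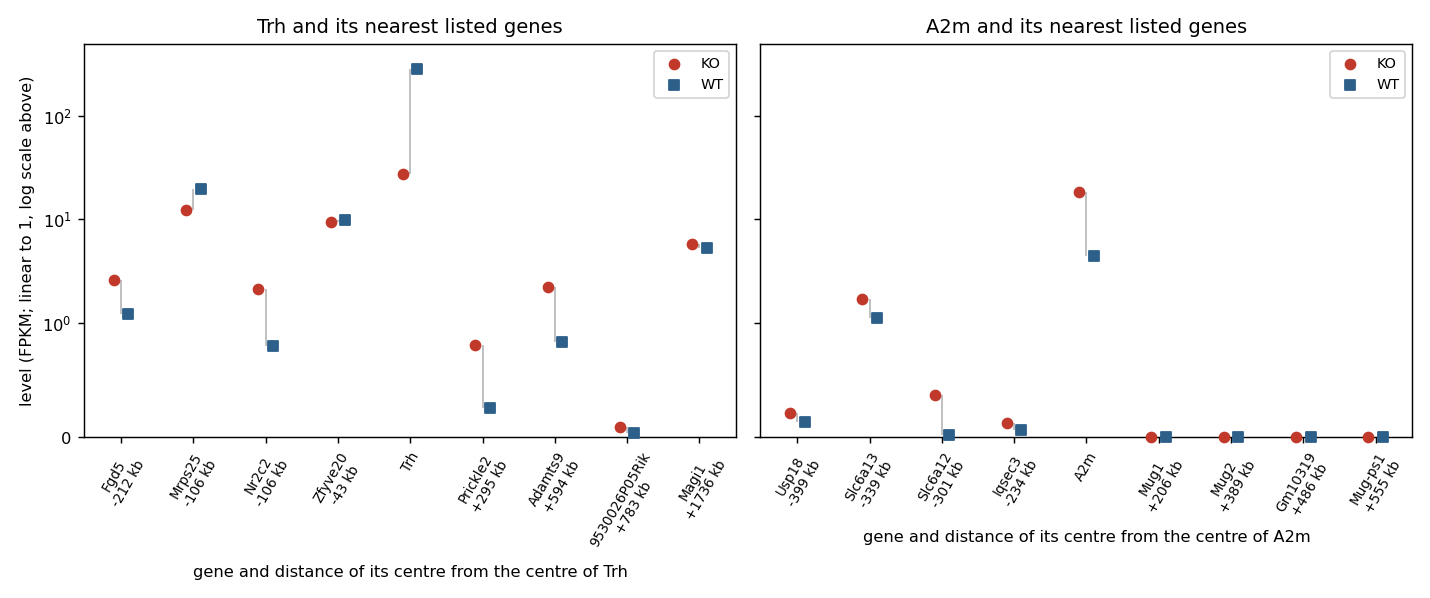
Pooled KO (circles) and WT (squares) levels (vertical axis, FPKM, linear up to 1 and logarithmic above) of Trh and A2m and of the 4 listed genes nearest to each on either side, in order along chromosome 6 at equal spacing, with the distance between gene centres in kb. Trh (27.6 FPKM in KO, 285.7 FPKM in WT) and A2m (18.6 FPKM in KO, 4.37 FPKM in WT) lie above every neighbour shown in both genotypes.

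Genes with a pattern like each member were sought as those closest in both levels at once, by the distance in log2 FPKM over the 2 genotypes. For Spink3 the nearest was Egr1, which encodes a growth factor induced transcription factor, at 2.58 FPKM in KO and 16.7 FPKM in WT cells (distance 0.29), followed by Gap43 (distance 0.72), Tspan8, Ubd and Irgm1, all called lower. For A2m they were Igf2r, for a receptor that sorts lysosomal enzymes, at 17.2 FPKM in KO and 6.005 FPKM in WT cells (distance 0.47), then Acsf2, Krt19, Ttll6 and Gaa (distance 0.56 to 0.64), all called higher. For Trh the nearest was the microRNA gene Mir199a-1 at 32.2 FPKM in KO and 191 FPKM in WT cells (distance 0.62, not called), then Gm5643, and the only called gene among its 5 was Ifrd1, with 40.6 FPKM in KO and 132 FPKM in WT cells (distance 1.24). With only 2 pooled values per gene, this likeness says no more than that the levels lie close.

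Facts of the whole comparison and cell type markers bear on these values as follows. The targeted gene Alkbh1 had 18.1 FPKM in KO and 33.9 FPKM in WT cells and was not called (q = 0.0943 in the authors' deposited table), and since the removed piece is not stated, this value does not check the labels. Of 13 markers of undifferentiated ES cells, all tested, 9 were called lower and 0 higher in the authors' deposited table, with 4533 summed FPKM in KO and 7460 in WT cells, and with equal totals 4 of these calls would lie above and 5 below 0. The median log2 fold change of these 13 markers was -0.50. All of them lie in level deciles 9 and 10, where the medians of tested genes were -0.51 and -0.72. Among these markers, Pou5f1 had 716 FPKM in KO and 1222 FPKM in WT cells. Of 23 genes for secreted proteins of liver and visceral endoderm, which make many plasma proteins, 10 were tested, 1 was called higher and 3 lower, and they summed to 121.7 FPKM in KO and 156.4 FPKM in WT cells. The most abundant of them was Apoe, at 73.2 FPKM in KO and 73.4 FPKM in WT cells, then Apoa2, at 23.6 FPKM in KO and 49.7 FPKM in WT cells, Fetub, at 7.75 FPKM in KO and 10.3 FPKM in WT cells, and Rbp4, at 4.87 FPKM in KO and 6.59 FPKM in WT cells. The 13 not tested reached at most 0.317 FPKM, with Afp at 0.0478 FPKM in KO and 0.0823 FPKM in WT cells, Ttr at 0.0403 FPKM in KO and 0.0239 FPKM in WT cells, and Alb at 0.0183 FPKM in KO cells and listed at 0 in WT cells. Of 19 endoderm markers 13 were tested, with 7 higher and 2 lower, but Sox17 (0.140 FPKM in KO, 0.0665 FPKM in WT) and Foxa2 (0.0141 FPKM in KO, 0.0830 FPKM in WT) were near 0. Trophoblast markers gave 5 higher and 2 lower of 9 tested, neural markers 2 higher and 3 lower of 8, and fibroblast markers 4 higher and 2 lower of 8. With a mean of at least 1 FPKM, endoderm markers gave 4 higher and 1 lower, and trophoblast markers 3 higher and 2 lower. Neural markers then gave 2 higher and 2 lower, and fibroblast markers 2 higher and 1 lower. The fibroblast median turned from 0.64 to -0.25 with this filter. Medians of all tested genes in level deciles 1 to 4 ran from 0.69 down to 0.23. Without the filter, the shares called were 69.2% for ES cell and for endoderm markers and 40% for liver and visceral endoderm proteins. They were 77.8% for trophoblast, 62.5% for neural and 75% for fibroblast markers. Over all tested genes 50.8% were called, 22.4% higher and 28.4% lower. The part of these marker genes in the differences of Trh, Spink3 and A2m was not tested.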

How the data were processed

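Per the submitters' processing notes, TopHat2 (no version named) and the mouse build mm9 were used. The library kit was strand-specific, per the labels' protocols. The annotation and the scaling between libraries are not given in the sources used here. Column names match Cuffdiff's gene tables, per the file headers. The deposited values are 1 pooled FPKM per genotype, the authors' log2 fold change of KO over WT, their test statistic (a score), and their p-value and q-value. The smallest p-value deposited was 5e-05, so genes that share it cannot be ranked by it.

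No gene test was run anew: a call means a deposited q under 0.05, with its direction from the fold change. Medians use the 14039 tested genes with a finite fold change. Start positions were raised by 1, on the inference that the deposited ones count from 0, since spans then equal RefSeq gene lengths, as for Trh, far more often than without it. Transcript lengths come from the longest GENCODE M21 transcript by symbol or RefSeq synonym (99.3% of tested genes); that annotation and the RefSeq promoters are on GRCm38, and no coordinate was converted. The members, the 17 gene lists and the rules were chosen with earlier results of these data known. Genes named are called list members (up to 4 by mean FPKM, or all where 5 or fewer), tested Kazal and A2m family genes, the nearest genes by position, fold change and level, and a few whose values were seen first (Thra, the markers and uncalled genes quoted for context). Il6st, Il6ra, Jak2, Stat5b and Lif were likewise named after their values were seen. Alternatives were q under 0.01 or 0.1, at least 2-fold, a mean of at least 1 FPKM, a pseudocount of 1, recentring, equal totals and comparison within deciles. Counting was tested on simulated data. Python 3.11.15, NumPy 2.4.6 and pandas 2.3.3 were used.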

Additional observations from a re-analysis of the deposited data

How the results depend on the processing

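Trh, Spink3 and A2m were chosen for differences larger than any shift made by the alternatives run, so their directions could not turn. Nothing is read from the directions, and only the sizes moved. The log2 fold change of Trh was -3.32 with a pseudocount of 1, -3.31 recentred on the median of all tested genes, -2.72 with equal totals, -2.65 against the median of its decile by level and -3.07 against that by length. For Spink3 these were -2.64, -3.04, -2.45, -3.07 and -2.64, and for A2m 1.87, 2.15, 2.74, 2.12 and 2.01, in the same order. The comparison by length and the splits of calls with equal totals were added after seeing the data. Over all tested genes, 3163 calls were higher and 4000 lower, against 1274 higher and 756 lower at 2-fold or more, and 4788 above and 2375 below 0 with equal totals. Of 34 list counts, 23 moved by over 1.5 times at 2-fold or more, 12 with equal totals, 11 with a mean of at least 1 FPKM, 7 at q under 0.01 and 3 at q under 0.1. Of 17 list medians, 5 moved by 0.1 or more with the filter on low genes and 8 with a pseudocount of 1. No paired analysis was possible because the table holds 1 pooled value per genotype, and for the same reason no library could be left out. The depth is unknown, so values near 0 cannot be told from 0.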
